A study of Mus musculus with 6 samples.

Results

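Mechanosensitive ion channels open when the membrane around them is stretched and let cations, calcium among them, into the cell. The transcripts described here are those of 4 such channels, Piezo1, Piezo2, Trpv4 and Trpc6, taken by gene name from a table of 17572 protein-coding genes, and all 4 passed the filter on low counts. The samples were skin scars of wild-type (WT) C57BL/6 mice, collected 2 weeks after the operation and profiled by sequencing of RNA depleted of ribosomal RNA. In the stretched group, wounds of the upper back were stitched under tension to the rib cage and gave hypertrophic scars (HS, n = 3 libraries). In the control group, wounds of the lower back were closed in place without tension and gave normal scars (NS, n = 3 libraries). Tension and position on the back cannot be told apart in this design. Neither age nor animal is labelled, and a p-value here covers only the variation among the 6 libraries, part of which could be technical.

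Piezo1 and Piezo2 are large channels gated directly by membrane tension. Piezo1 is best known from blood vessels, red cells and many epithelia, and Piezo2 from the Merkel cells and sensory nerve endings that report light touch in skin. Trpv4 is a calcium-permeable channel of keratinocytes and other cells that opens with osmotic swelling, warmth and stretch. Trpc6 opens with diacylglycerol, a lipid messenger, is often counted among stretch-sensitive channels, and is known for raising calcium that acts through calcineurin and the transcription factors called NFAT, a route described in cells turning into myofibroblasts.

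The 4 channels did not move together. Piezo2 and Trpc6 were each about 4-fold higher in HS, Trpv4 was lower in HS, and Piezo1 lay at a like level in both groups. Of the 4 channels 2 were called higher and 1 lower by edgeR's quasi-likelihood test at a Benjamini-Hochberg adjusted p under 0.05. Over all 14513 genes tested 6.33% were called higher and 2.51% lower, 8.85% in all. Scaled by library total alone, 930 genes were called higher and 585 lower, against 919 and 365 with TMM scaling, and the calls on the 4 channels stayed as they were. For 3 of the 4 channels the groups were fully separated, with no overlap of values, as for 32.3% of all genes (17.2% higher and 15.2% lower). The summed counts per library ran from 20375395 to 27859889, and normalised read counts are given as CPM, the count scaled to a common library total. HS replicate 2 was the HS library with the smallest rise in both genes that rose, and the group spread was wider in HS than in NS for both.

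**Figure D1:**
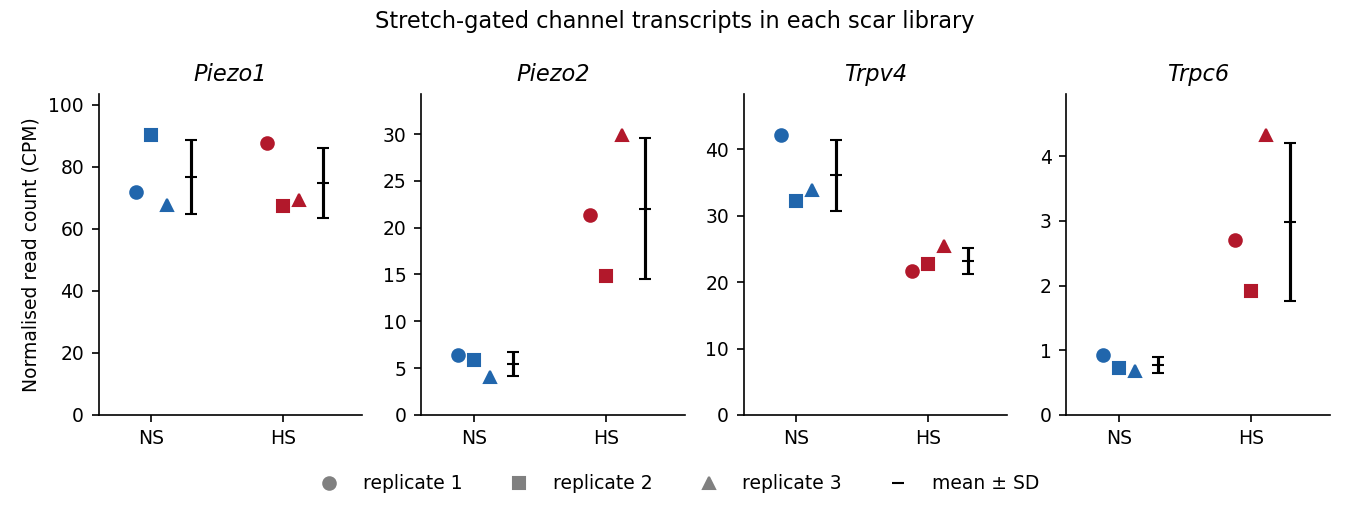
Normalised read count (CPM, linear axis from 0) of each channel in the 3 NS (blue) and 3 HS (red) libraries, with symbols for the replicate and a bar for the mean ± SD. Piezo2 and Trpc6 are higher and Trpv4 lower in every HS library than in any NS library, whereas the Piezo1 values of the groups overlap.

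Piezo2 (ENSMUSG00000041482, chromosome 18, 63010213 to 63387183, minus strand, GRCm38) was counted 568, 333 and 815 times in HS replicates 1 to 3, against 146, 123 and 101 times in the NS replicates. These were 21.4, 14.8 and 29.8 CPM in HS against 6.38, 5.91 and 4.04 CPM in NS. Each HS library thus lay above each NS library, and the lowest HS value was 2.73 times the NS mean while the highest was 5.48 times it. Piezo2 averaged 22.0 ± 7.53 CPM in HS against 5.44 ± 1.24 CPM in NS (SD over 3 libraries), and the fitted rise was 4.05-fold (log2 fold change 2.02 ± 0.287, SE, 95% interval 1.37 to 2.67, edgeR adjusted p = 0.01036). By p-value Piezo2 ranked 91 among the 14513 genes. The adjusted p was 0.0518, 0.0709 and 0.0620 without NS replicates 1, 2 and 3, in fits that called 0.635%, 0.169% and 0.326% of all genes, and the log2 fold change stayed between 1.73 and 2.23 with any library left out.

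Trpc6 (ENSMUSG00000031997, chromosome 9, 8544142 to 8680741, plus strand) was the least abundant of the 4. HS replicates 1 to 3 gave 72, 43 and 118 counts, and the NS replicates 21, 15 and 17. The groups did not overlap, but the exact Poisson interval (95%, counting error only) of the lowest HS count, 31.1 to 57.9, met that of the highest NS count, 13.0 to 32.1. As CPM, HS replicates 1 to 3 held 2.71, 1.92 and 4.32 and NS replicates 1 to 3 held 0.918, 0.721 and 0.680. Trpc6 rose 3.85-fold, from 0.773 ± 0.128 to 2.98 ± 1.23 CPM (SD, n = 3, log2 fold change 1.94 ± 0.448, SE, edgeR adjusted p = 0.03337). HS replicate 3 weighed most on this value, since the log2 fold change was 1.58 without it (adjusted p = 0.166, with 1.01% of all genes called). The call was also lost without NS replicates 1, 2 and 3 (adjusted p = 0.0961, 0.126 and 0.112 in edgeR), with the replicate number as a block (adjusted p = 0.0562, 6.9% of genes called) and with limma-voom (adjusted p = 0.0641, 6.51% called).

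Trpv4 (ENSMUSG00000014158, chromosome 5, 114622152 to 114658421, minus strand) went the other way. It stood at 21.6, 22.7 and 25.4 CPM in HS replicates 1 to 3 and at 42.1, 32.2 and 33.9 CPM in NS replicates 1 to 3, from 509 counts or more in every library. All 3 HS values lay below all 3 NS values, and the HS libraries were closely grouped, with a coefficient of variation of 8.42% against 14.7% in NS. Trpv4 fell from 36.1 ± 5.30 to 23.2 ± 1.96 CPM (SD, n = 3), to 0.644 of the NS level (log2 fold change -0.63 ± 0.141, SE, 95% interval from -0.952 to -0.317, edgeR adjusted p = 0.02932). The call was lost without HS replicate 3 (adjusted p = 0.0775), without NS replicates 1, 2 and 3 (adjusted p = 0.11, 0.0871 and 0.0849 in edgeR) and with the replicate block (adjusted p = 0.0519).

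Piezo1 (ENSMUSG00000014444, chromosome 8, 122481698 to 122551329, minus strand) was the most abundant of the 4 by count. Its levels were 87.5, 67.3 and 69.3 CPM in HS replicates 1 to 3 and 71.9, 90.1 and 67.6 CPM in NS replicates 1 to 3. The groups overlapped fully, with HS replicate 1 and NS replicate 2 the highest of their groups. The means were 74.7 ± 11.1 and 76.5 ± 11.9 CPM (SD, n = 3), and the log2 fold change of -0.03 ± 0.14 (SE) was not called (edgeR adjusted p = 0.9107). The 95% interval of the log2 fold change ran from -0.35 to 0.283. Exons of Ctu2, a gene on the other strand, share up to 2441 bases with those of Piezo1, and no source used here states which strand was counted. Ctu2 itself had 213 to 248 counts in HS and 239 to 294 counts in NS (log2 fold change -0.38 ± 0.163, SE, edgeR adjusted p = 0.1799). None of the other 3 channels shares exon bases with an annotated gene.

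The start regions of the channels are shown because 1 of these genes rose, 1 fell and 1 was not called. RefSeq's promoter table (GRCm38.p6) matched 3 of the 4 by symbol, Piezo1, Trpv4 and Trpc6. The 250 bases before each start are printed 5′ to 3′ on the gene's strand, at chr8:122551330-122551579 (minus), chr5:114658422-114658671 (minus) and chr9:8543892-8544141 (plus), with capitals for matches to any of 5 motifs searched on both strands.
Piezo1: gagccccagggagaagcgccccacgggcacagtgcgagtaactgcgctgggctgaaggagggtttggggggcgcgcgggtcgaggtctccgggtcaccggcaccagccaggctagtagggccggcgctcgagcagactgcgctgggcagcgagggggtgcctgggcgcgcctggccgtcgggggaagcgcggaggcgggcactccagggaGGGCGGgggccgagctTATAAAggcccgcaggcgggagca
Trpv4: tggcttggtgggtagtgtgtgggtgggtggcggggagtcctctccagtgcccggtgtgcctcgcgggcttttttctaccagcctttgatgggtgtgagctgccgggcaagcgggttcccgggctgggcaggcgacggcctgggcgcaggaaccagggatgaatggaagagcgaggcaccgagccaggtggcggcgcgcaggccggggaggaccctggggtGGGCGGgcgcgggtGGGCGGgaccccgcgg
Trpc6: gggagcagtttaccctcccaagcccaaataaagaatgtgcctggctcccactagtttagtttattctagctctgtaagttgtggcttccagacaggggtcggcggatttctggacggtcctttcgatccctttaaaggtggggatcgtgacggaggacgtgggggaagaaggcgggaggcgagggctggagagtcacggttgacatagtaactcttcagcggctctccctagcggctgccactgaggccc

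The Piezo1 and Trpv4 windows are rich in G and C (74% and 72%) and hold 26 and 22 CpG pairs, whereas the Trpc6 window has 56.4% and 12 pairs. The medians over 32851 promoter windows of the same length were 52.4% and 6 pairs. The Sp1 motif GGGCGG occurs once in the Piezo1 window and at 2 places in the Trpv4 window, and 32.7% of all windows hold it. A TATA motif, TATAAA, occurs in the Piezo1 window and in 12.4% of all windows. The TEAD motif GGAATG (12.6% of all windows), the AP-1 motif TGANTCA (6.75%) and the NFAT motif GGAAAA (20.4%) have no match in these 3 windows, and no matches overlap each other. Such matches describe letters and are not binding sites.

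Levels of different genes were compared per length, as CPM divided by the kilobases in the union of annotated exons (RPKM). In NS the order was Trpv4 at 8.85 ± 1.30, Piezo1 at 7.70 ± 1.20, Piezo2 at 0.317 ± 0.0723 and Trpc6 at 0.153 ± 0.0252 RPKM (mean ± SD, n = 3). The ranges of Trpv4 and Piezo1 overlapped, while Piezo2 and Trpc6 stood apart from them and from each other. In HS the order was Piezo1 at 7.52 ± 1.12, Trpv4 at 5.70 ± 0.480, Piezo2 at 1.28 ± 0.438 and Trpc6 at 0.589 ± 0.242 RPKM, and no range overlapped that of its neighbour in the order. The gap between Piezo1 and Trpv4 in HS depended on the length used: per kilobase of the longest coding sequence they stood at 8.81 to 11.5 and 8.27 to 9.73, which overlap. The rise of Piezo2 and Trpc6 thus left both below Piezo1 and Trpv4 in every library by each of the 3 lengths tried.

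**Figure D2:**
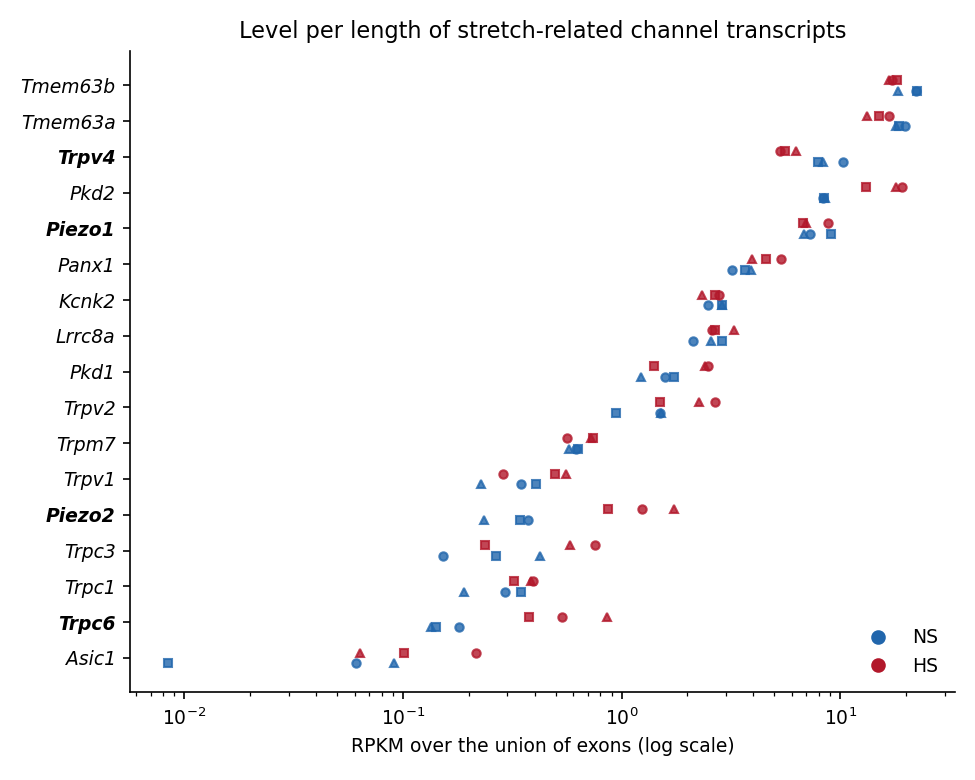
Level per length (RPKM over the union of exons, log axis) of the 4 channels, in bold, and of other stretch-related channels with a group mean of at least 0.1 RPKM, for each NS (blue) and HS (red) library, in order of the NS mean. Trpv4 and Piezo1 lie between 5.30 and 10.3 RPKM in every library, and Piezo2 and Trpc6 at most at 1.74 RPKM, higher in HS than in NS.

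Differences in response between the channels were tested on the log2 ratio of each pair within a library, for all 6 pairs. Piezo2 was below Trpv4 in the 3 NS libraries, with log2 ratios of CPM of -2.70, -2.43 and -3.04 in replicates 1 to 3, and near it in HS, with -0.02, -0.61 and 0.23. The mean ratio of Piezo2 to Trpv4 was therefore 2.59 higher in HS on the log2 scale. Piezo1 exceeded Piezo2 by a mean of 3.80 ± 0.294 in NS and of 1.81 ± 0.518 in HS (log2, SD, n = 3). Trpv4 exceeded Trpc6 by 5.37 ± 0.0751 and 2.99 ± 0.486, and Piezo1 exceeded Trpc6 by 6.45 ± 0.318 and 4.67 ± 0.603, in NS and HS in that order. In these 4 pairs the groups did not overlap, and the exact two-sided permutation test gave p = 0.1 (adjusted p = 0.15 over the 6 pairs), the smallest p that 3 against 3 libraries allow.

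For Piezo1 and Trpv4 the ratios of the groups overlapped, with a mean difference of 0.593 on the log2 scale (exact permutation p = 0.2, adjusted p = 0.2). The ratio of Piezo2 to Trpc6 also overlapped between the groups. In counts it was 7.89, 7.74 and 6.91 in HS replicates 1 to 3 and 6.95, 8.20 and 5.94 in NS replicates 1 to 3. Every pair of exact 95% intervals of these ratios overlapped, the narrowest being 5.69 to 8.45 in HS replicate 3. Between groups the log2 ratio differed by 0.211 (exact permutation p = 0.2, adjusted p = 0.2), and the groups also overlapped with raw counts. With a pseudocount of 1 CPM in place of 0.1, which is above every NS value of Trpc6, the difference was 0.678 and the overlap ended, with 2.44 to 2.59 in HS and 1.58 to 2.01 in NS (exact permutation p = 0.1). Both channels ordered the HS libraries as replicate 3, then 1, then 2.

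**Figure D3:**
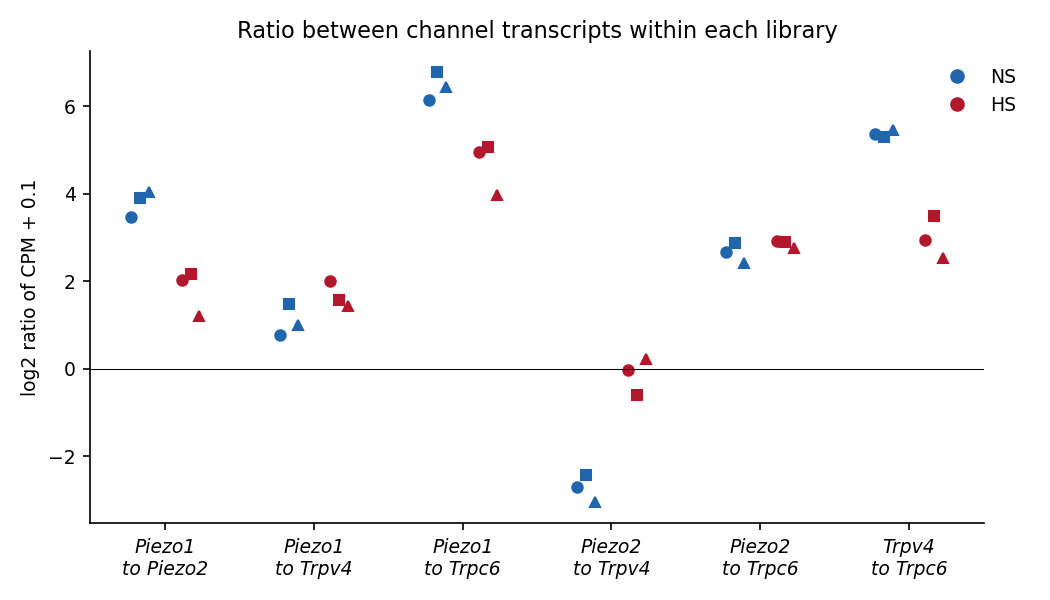
Log2 ratio of CPM + 0.1 between each pair of channels within each library (NS blue, HS red; symbols as for the replicates in the plot of normalised read counts). With this pseudocount the ratio of Piezo2 to Trpc6 and that of Piezo1 to Trpv4 overlap between groups and the other 4 pairs do not, while with 1 CPM that of Piezo2 to Trpc6 does not overlap either.

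The genes most like each channel over the 6 libraries were found by the root mean square difference between mean-centred log2 CPM profiles. The search covered 11402 tested genes with a mean of at least 5 CPM that are in none of the lists used here. Genes of those lists, calpains and cell type markers among them, were left out and could lie nearer than the genes named. For Piezo2 the nearest of the genes searched were Mamdc2 (difference 0.171), the innate immune receptor Tlr1 (0.225) and Robo4 (0.26), a receptor of endothelial cells. Trpc6 lay at 0.174 from Piezo2, so that only 1 of the 11402 genes was nearer to it. For Trpc6 they were Cacna1c (0.186), which encodes the pore subunit of an L-type calcium channel, the protocadherin Fat4 (0.206) and the apelin receptor Aplnr (0.232), and none of the 11402 genes was nearer to Trpc6 than Piezo2 was. Cacna1c rose 3.61-fold (log2 fold change 1.85, edgeR adjusted p = 0.01651), from between 2.98 and 3.80 CPM in NS to between 6.59 and 16.1 CPM in HS.

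Among the same genes outside the lists, Trpv4 was nearest to the homeobox gene Hoxd8 (0.0828), Ggt1 (0.0844), an enzyme of glutathione breakdown, and Plekhh3 (0.0975). Hoxd8 fell by 0.52 on the log2 scale (edgeR adjusted p = 0.04041). Piezo1, whose groups overlapped, was nearest among them to Klhdc1 (0.0497), Cxxc5 (0.0605) and Mad2l1bp (0.063). These likenesses rest on 6 libraries that share their group means, and carry no test.

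A list of 23 other channels reported to respond to stretch or pressure held 14 that could be tested. Of these 1 rose and none fell, a share of 7.14% called, near the background of 8.85%, with a median log2 fold change of 0.387 against -0.01 over all genes. The 1 that rose was Pkd2, the cation channel polycystin-2 mutated in polycystic kidney disease. It stood at 194, 134 and 183 CPM in HS replicates 1 to 3 and at 84.6, 85.4 and 86.5 CPM in NS replicates 1 to 3, a 1.99-fold rise (log2 fold change 0.995 ± 0.132, SE, edgeR adjusted p = 0.008279). Pkd2 lost its call without any of the NS replicates (adjusted p between 0.0536 and 0.0671 in edgeR). Those fits called 0.169% to 0.635% of all genes. Tmem63a and Tmem63b, which encode relatives of plant osmosensing channels and were picked out after their values were seen, had the highest NS levels per length of the channels measured, 18.7 ± 0.937 and 21.1 ± 2.32 RPKM (SD, n = 3), and were not called (log2 fold change -0.32 ± 0.103 and -0.28 ± 0.0985, SE, edgeR adjusted p = 0.0861 and 0.1106). Tmem63a was called lower with scaling by library total alone (adjusted p = 0.0477 in edgeR) and without HS replicate 1 (adjusted p = 0.038). Each shares exon bases with a gene on the other strand.

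**Figure D4:**
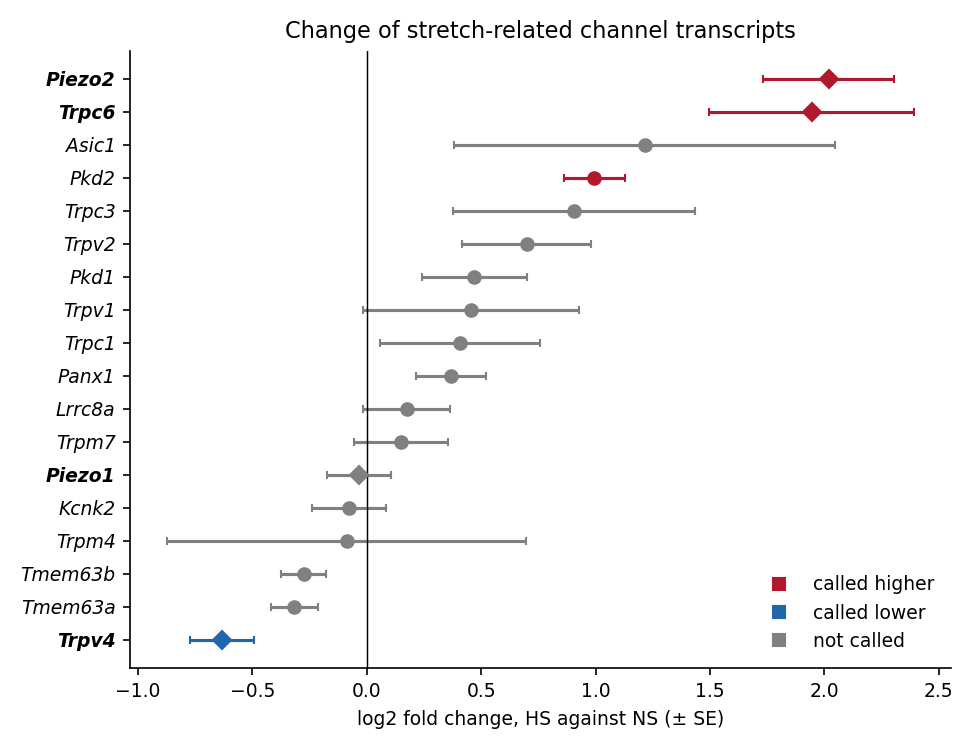
Log2 fold change of HS against NS (± SE) for the 4 channels (diamonds, bold) and the 14 other stretch-related channels tested (circles), coloured by edgeR's call. Piezo2, Trpc6 and Pkd2 were called higher and Trpv4 lower.

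Genes whose products bind or regulate these channels were tested next. In a list of 10 with 8 tested, the median log2 fold change was 0.559. Of the 8, 3 rose and none fell, a share of 37.5% called against 8.85% over all genes. They were Pkd2 again, Cav1, which encodes the main protein of caveolae (1.68-fold, adjusted p = 0.02017 in edgeR), and Sestd1, a protein that binds Trpc channels (1.54-fold, adjusted p = 0.04189). Cav1 averaged 304 ± 23.8 CPM in the NS libraries and 512 ± 99.9 CPM in the HS libraries (SD, n = 3). No gene of this list was called without NS replicate 1, 2 or 3, and 1 without HS replicate 3. Over all genes those fits called 0.169% to 0.635% and 1.01%. Sestd1 also lost its call without HS replicate 1 (adjusted p = 0.07 in edgeR) and with limma-voom (adjusted p = 0.057).

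Of 11 genes tested for calcium stores and pumps, 1 rose and 1 fell, a share of 18.2% called against 8.85% over all genes. Itpr1, which encodes a calcium release channel of the endoplasmic reticulum, stood at 50.5, 35.5 and 59.3 CPM in HS replicates 1 to 3 and at 20.8, 22.4 and 24.5 CPM in NS replicates 1 to 3, and rose 2.15-fold (edgeR adjusted p = 0.01421). Stim1, the calcium sensor of the store, fell to 0.801 of its NS level (109.9 ± 3.45 CPM in NS, 88.0 ± 6.20 CPM in HS, SD over 3 libraries, edgeR adjusted p = 0.04683). The Stim1 call was lost with the replicate block (adjusted p = 0.0867), with limma-voom (adjusted p = 0.0568) and with no robust step (adjusted p = 0.0501, 9.34% of genes called). Exons of Itpr1 overlap an antisense gene. No gene of this list was called without HS replicate 3 or without any NS replicate, in fits that called 0.169% to 1.01% of all genes.

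Of 16 calcineurin, NFAT and calmodulin genes, 1 rose and none fell, a share of 6.25% called against 8.85% over all genes. The median log2 fold change was 0.113. Nfatc4, an NFAT factor, had 46.3, 22.4 and 33.0 CPM in HS replicates 1 to 3 and 14.3, 19.3 and 15.0 CPM in NS replicates 1 to 3, and rose 2.10-fold (edgeR adjusted p = 0.04189). Its call was lost with the replicate block (adjusted p = 0.0824) and with limma-voom (adjusted p = 0.0611). The list held 4 calls without HS replicate 2, where 22% of all genes were called. It held no call without HS replicate 3 or any NS replicate, where 0.169% to 1.01% of all genes were called.

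Among 6 calpain genes, of calcium-activated proteases and their partners, 2 rose and none fell, 33.3% called against 8.85% over all genes. Capn2, the catalytic subunit of m-calpain, rose 1.58-fold (258 ± 28.9 against 163 ± 5.55 CPM, SD, n = 3, edgeR adjusted p = 0.01049). Capn6, a calpain that lacks protease activity, stood at 39.1, 20.6 and 50.3 CPM in HS replicates 1 to 3 and at 8.66, 7.06 and 6.56 CPM in NS replicates 1 to 3, a 4.94-fold rise (edgeR adjusted p = 0.01169). Exons of Capn2 overlap an antisense gene and those of Capn6 a microRNA gene. Neither Capn2 nor Capn6 was called without any of the NS replicates, in fits that called 0.169% to 0.635% of all genes.

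Scars are mixtures, and fewer cells of a type and less RNA per cell cannot be told apart in such samples. Fibroblast markers were called higher in 6 of 8, and their summed level was 14388 to 27001 CPM in HS and 7042 to 8972 CPM in NS. Of 8 endothelial markers 6 rose (summed 320 to 538 against 189 to 194 CPM), of 5 lymphatic markers 1 rose (111 to 167 against 47.6 to 70.8 CPM), and of 8 pericyte and smooth muscle markers 3 rose and 1 fell (818 to 1184 against 760 to 782 CPM). Sums of macrophage markers were also higher in HS (971 to 2587 against 729 to 892 CPM), with no call among 6. These counts moved with single libraries. Without HS replicate 3, where 1.01% of all genes were called, the calls were 1 for fibroblasts, 2 for endothelium, 1 for pericytes and 0 for lymphatics. Without any one NS replicate, where 0.169% to 0.635% of all genes were called, they were 0 in all 4 lists. Without HS replicate 2, where 22% of all genes were called, 8 fibroblast, 8 endothelial and 5 macrophage markers were called higher. With DESeq2 (16.8% of all genes called) and with no robust step (9.34%) 3 macrophage markers were. From highest to lowest, the HS libraries stood in the order of replicates 1, 3, 2 in the fibroblast, endothelial, lymphatic, pericyte and macrophage sums, and in the order 3, 1, 2 of Piezo2 and Trpc6 in the adipocyte, Merkel cell and sebaceous gland sums. Orders of only 3 libraries coincide easily among so many lists, and these matches were not tested.

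No marker of the cells in which Piezo2 is best known was called. None of 5 tested Merkel cell markers was called, and their sum was lower in HS, 7.71 to 9.78 against 13.0 to 14.5 CPM, with Tmem163 and Rab3c at 0 in some libraries. None of 9 Schwann cell markers was called (198 to 298 against 182 to 200.5 CPM). Of the sensory neuron markers 2 could be tested and neither was called, and Prph, Scn10a, Calca and Nefh each had 0 counts in at least 1 library. Set against the summed fibroblast markers, Piezo2 was 0.791, 1.03 and 1.32 per 1000 marker reads in HS replicates 1 to 3 and 0.907, 0.659 and 0.456 in NS replicates 1 to 3, values that overlap. Between 74.9% and 80.8% of that sum came from the type I collagen genes Col1a1 and Col1a2. Against the 8 fibroblast markers singly, a check added after seeing the data, Piezo2 overlapped between groups for 4 (Col1a1, Col1a2, Lum and Dpt) and was higher in every HS library for 4 (Pdgfra, Pdgfrb, Dcn and Thy1), with 85.1 to 136 per 1000 Pdgfra reads in HS and 28.3 to 51.3 in NS. Trpc6 overlapped for 5 and was higher for 3 (Pdgfra, Dcn and Thy1). Against the summed Schwann cell markers the Piezo2 values of the groups did not overlap, at 71.8 to 151 in HS and 20.4 to 35.1 in NS. The same held against the summed endothelial markers (39.7 to 58.3 and 20.8 to 33.1). Trpc6 likewise overlapped against the fibroblast sum (0.1 to 0.192 in HS and 0.0767 to 0.13 in NS) and did not against the endothelial sum (5.04 to 8.44 and 3.51 to 4.76). Only the fibroblast markers were taken singly, and overlap against a single marker can differ from that against a sum. Endothelial markers, for example, rose by unlike amounts, from 1.61-fold for Egfl7 (not called) to 2.96-fold for Pecam1 (picked out after their values were seen). Per 1000 reads of lymphatic or macrophage markers, both Piezo2 and Trpc6 overlapped between groups. Per 1000 reads of the summed pericyte and smooth muscle markers neither overlapped. Piezo2 stood there at 18.0 to 26.7 in HS and 5.315 to 8.16 in NS, and Trpc6 at 2.29 to 3.86 and 0.8945 to 1.17. The genes of that sum did not move together. Kcnj8 was called higher (3.665-fold), Cspg4 was called lower (0.737 of NS), and Des and Notch3 were not called (0.866 and 0.893). These 4 were picked out after their values were seen, and ratios to single pericyte markers were not taken. Piezo1, known from endothelium, was lower in HS per 1000 endothelial marker reads, at 135 to 210.2 against 349 to 478. The same held per 1000 fibroblast (3.07 to 4.68 against 7.63 to 10.2), lymphatic, pericyte and macrophage marker reads. Against Merkel cell and sensory neuron markers Piezo1 was higher in every HS library, and against the other lists the groups overlapped. The part of these cell types in the rise of Piezo2 and Trpc6 was not tested.

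Some epithelial and appendage markers fell in HS, as Trpv4 did. Of 8 basal keratinocyte markers 1 fell and none rose (5454 to 6719 against 6419 to 7368 CPM), of 8 differentiated keratinocyte markers 2 fell (11797 to 20181 against 18512 to 26345 CPM), of 8 hair follicle markers 2 fell (15127 to 18491 against 21198 to 24820 CPM), and of 7 sebaceous gland markers 3 fell (3813 to 4547 against 5098 to 6032 CPM). Of 5 melanocyte markers 1 fell (360 to 716 against 799 to 944 CPM). The sums of both keratinocyte lists overlapped between groups, and 3 basal markers had fold changes above 0 on the log2 scale, Dst at 0.304, Krt14 at 0.219 and Itga6 at 0.0139, none called (chosen after their values were seen). Without HS replicate 2 the markers called lower were 7 differentiated keratinocyte, 7 hair follicle, 4 sebaceous, 4 melanocyte and 3 basal ones, with 1 basal marker higher, and with DESeq2 they were 5, 6, 6, 3 and 1, again with 1 basal marker higher. The fit without HS replicate 2 called 22% of all genes and DESeq2 called 16.8%. Without HS replicate 3 or any one NS replicate at most 1 marker of each list was called. Those fits called 0.169% to 1.01% of all genes. Per 1000 reads of basal keratinocyte markers, Trpv4 was 3.38 to 3.96 in HS and 4.47 to 6.56 in NS, without overlap, and per 1000 of differentiated keratinocyte markers 1.12 to 2.13 and 1.29 to 2.28, with overlap. Per 1000 of hair follicle markers the values also overlapped, at 1.23 to 1.49 and 1.47 to 1.70. Their part in the fall of Trpv4 was not tested. Sums of skeletal muscle markers (1 higher and 1 lower of 8) and of adipocyte markers (none of 6 called) overlapped between groups, and those of cartilage and tendon markers (none of 6 called) were lower in HS.

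**Figure D5:**
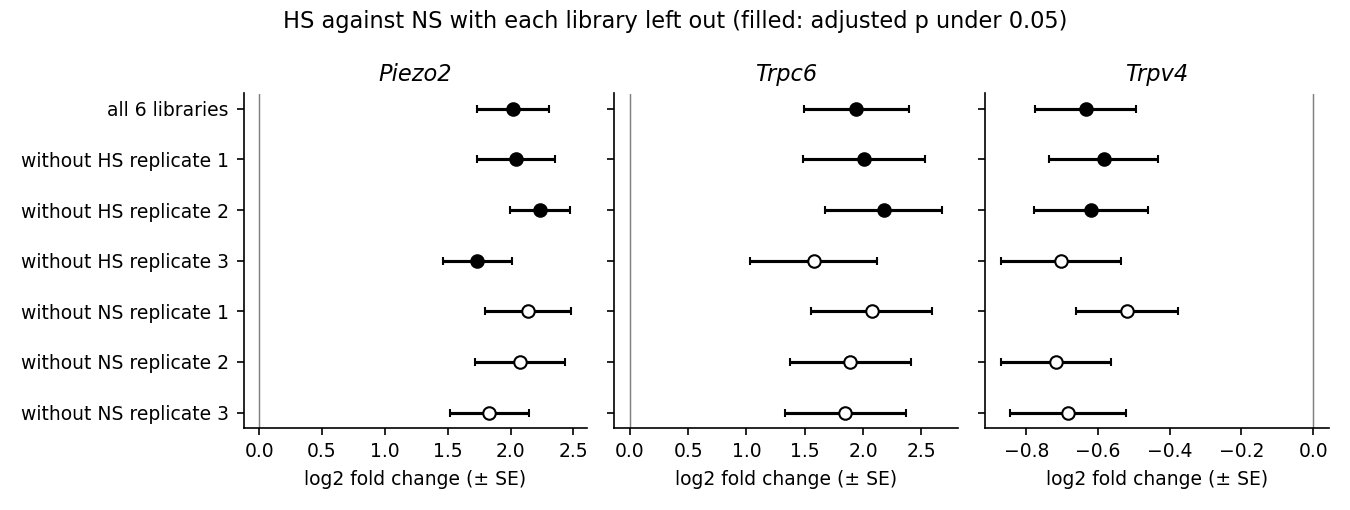
Log2 fold change of HS against NS (± SE) for Piezo2, Trpc6 and Trpv4 with all 6 libraries and with each left out, filled where edgeR's adjusted p was under 0.05. The direction held in each fit, and no channel was called without an NS library.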

How the data were processed

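RNA of 6 skin scar libraries was read as 150 bp paired ends after removal of ribosomal RNA, per the labels' protocols. The authors' deposited table holds raw counts per gene for protein-coding genes, per the file headers, and the submitters' processing notes list mm10 and the tools HTSeq 0.9.1, HISAT2 2.0.4, cutadapt 1.9.3 and edgeR. No source used here gives their settings or the strand counted. The 6 columns of normalized values were not used.

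Counts were fitted with edgeR 4.0.16 in R 4.3.3 (filterByExpr with minimum count 10, TMM factors between 0.955 and 1.033, robust quasi-likelihood fit, group as the only term), with Benjamini-Hochberg adjustment over the 14513 genes kept and a threshold of 0.05. A standard error is the log2 fold change divided by the root of the F statistic. CPM uses the TMM-scaled totals, in which 1 count was worth 0.0366 to 0.048 CPM, and RPKM divides CPM by exon lengths of GENCODE M21 (GRCm38, the build of mm10), which matched 17398 of the 17572 identifiers. Of 181 list genes annotated, 45 share exon bases with another gene.

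The channels, the lists (183 of 189 entries matched) and the tests were chosen with earlier results of these data known. Named genes were the 4 channels and up to 4 called genes a list with the smallest p. Where none was called, the 2 with the smallest p were named. Also named were the 3 nearest profiles a channel among genes outside all lists, found with log2 CPM at prior count 2. Marker lists are given by counts and sums. The summed level of the sensory neuron markers is not reported here. Pair ratios used log2(CPM + 0.1).

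On simulated counts for 14377 genes with the means and dispersions of HS against NS, the share recovered was 23.9% for 1.5-fold changes (67 genes), 68.7% for 2-fold (67) and 92.4% for 4-fold (66), with 8 false among 131 calls. No pair of libraries within a group agreed within sampling noise (chi-square per gene 14.2 to 107). Alternatives were other size factors, filters and totals, no robust step, leaving out single libraries, a replicate block, DESeq2 1.42.0 and limma-voom (limma 3.58.1).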

Additional observations from a re-analysis of the deposited data

How the results depend on the processing

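Piezo2, Trpc6 and Trpv4 kept their direction in all 15 other fits. Without 1 library the log2 fold change was 1.73 to 2.23 for Piezo2, 1.58 to 2.18 for Trpc6 and -0.72 to -0.52 for Trpv4, and it ran from -0.163 to 0.0924 for Piezo1, never called, with a positive sign without HS replicate 2 (0.0343), HS replicate 3 (0.0177) and NS replicate 2. The correlation of deviations was 0.018, 0.0133 and 0.036 for libraries of the same replicate number, and -0.039 to 0.0146 for different numbers. With 3 libraries a group and no animal labelled, these values cannot show whether the replicate numbers pair the libraries. The replicate block gave 1001 calls and left Trpv4 at -0.63, as printed for the main fit, and Trpc6 at 1.88. Neither Trpv4 nor Trpc6 was called any more with the block. With limma-voom Trpc6 also stood at 1.88. The causes were not tested. Over all genes 1284 calls became 25 to 3257 without 1 library and 2435 with DESeq2. Per kilobase of the longest protein-coding transcript and of the longest coding sequence, levels in HS were 9.09 and 9.78 for Piezo1, 2.05 and 2.60 for Piezo2, 7.20 and 8.89 for Trpv4 and 0.915 and 1.07 for Trpc6. In NS they were 9.31 and 10, 0.508 and 0.643, 11.2 and 13.8, and 0.237 and 0.277 in the same order of genes. Each of the 6 pair ratios kept its direction with other pseudocounts and without each library. The nearness of Piezo2 and Trpc6 was checked, after seeing the data, with log2(CPM + 0.1) and with a minimum mean of 1 CPM, and the number of nearer genes stayed at 1 and 0. Counts of 15 to 21 limit what can be said of Trpc6 in NS.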
